A study of Arabidopsis thaliana with 22 samples.

Results

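GID1A (AT3G05120) and GID1B (AT3G63010) encode gibberellin receptors of Arabidopsis thaliana, and their transcripts are described here across every genotype and light condition of the series. They were chosen by gene symbol in the platform annotation, which gives 1 probe set to each of them. They are 2 of 13286 genes named on the arrays.

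The series asked about red-light responses of seedlings short of phytochromes, the receptors of red and far-red light, and holds 22 ATH1 arrays of whole seedlings of the accession Ler after 4 days of growth. The quintuple mutant phyABCDE lacks phytochromes A to E. The quadruple mutant phyABDE keeps phytochrome C, so both mutants share the loss of phytochromes A, B, D and E, and wild type (WT) has all 5. The alleles are not given in the sources used here. Each mutant has 3 dark arrays (seedlings kept in darkness throughout), 2 DR2h arrays (dark-grown seedlings given 2 h of red light before harvest) and 3 R50 arrays (seedlings kept in continuous red light of 50 µmol per square metre and second). WT has 2 R50 arrays and 4 dark arrays. All seeds had received white light before growth began, and the arrays of a group are labelled as biological replicates.

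Gibberellin enters the pocket of a GID1 receptor, and the loaded receptor then binds DELLA proteins, which hold back growth. An F-box protein recruits that complex for degradation, and growth genes are released. In Arabidopsis the 3 receptors overlap in function, and DELLA proteins are known to raise transcripts of some receptor genes, so that the pathway feeds back on its own perception. Dark-grown seedlings depend on gibberellin for the long hypocotyl, and phytochromes are known to act on both gibberellin level and the DELLA-bound growth factors.

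GID1A was brightest in dark-grown phyABCDE. Its log2 intensities there were 8.47, 8.64 and 8.26, which are 355.8, 399.3 and 307.4 deposited intensity units. After 2 h of red light phyABCDE had 8.11 and 7.91, and in continuous red light it had 8.26, 7.91 and 8.00. Both sets of light-exposed arrays lay below the dark ones, the R50 set by only 0.008. The share of all probe sets whose groups separate in this way was not counted, for this or any later comparison. A separation is therefore a description of the arrays only.

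In phyABDE, GID1A read 7.76, 8.29 and 7.85 (log2) in darkness, 7.92 and 7.87 at DR2h, and 7.30, 7.78 and 7.80 under R50. The lowest of these, R50 replicate 1, was 157.2 intensity units, and the highest, dark replicate 2, was 312.2. Each light treatment overlapped with darkness in this genotype, while both DR2h arrays lay above all R50 arrays (7.87 against 7.80 at the closest point). WT had 7.90 and 8.20 (log2) under R50, against 7.50, 7.69, 8.03 and 7.70 in darkness, also with overlap.

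For GID1B it was WT in which light and dark arrays stood apart. WT had 5.61 and 5.19 (log2; 48.9 and 36.6 intensity units) under R50, against 5.92, 6.55, 6.14 and 5.95 (60.5, 93.9, 70.7 and 62.0) in darkness. Both red-light arrays lay below all 4 dark arrays, with a gap of 0.31 (log2), and how many other probe sets do so was not counted.

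In the mutants GID1B had no such gap between light conditions. The log2 intensities of phyABCDE were 6.03, 5.36 and 6.01 in darkness, 5.80 and 5.68 at DR2h, and 5.68, 5.87 and 5.77 under R50. Those of phyABDE were 5.83, 5.67 and 5.58 in darkness, 5.69 and 5.53 at DR2h, and 5.69, 5.32 and 5.66 under R50. The conditions overlapped in both mutants, and dark replicate 2 of phyABCDE was the lowest of the phyABCDE arrays.

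**Figure D1:**
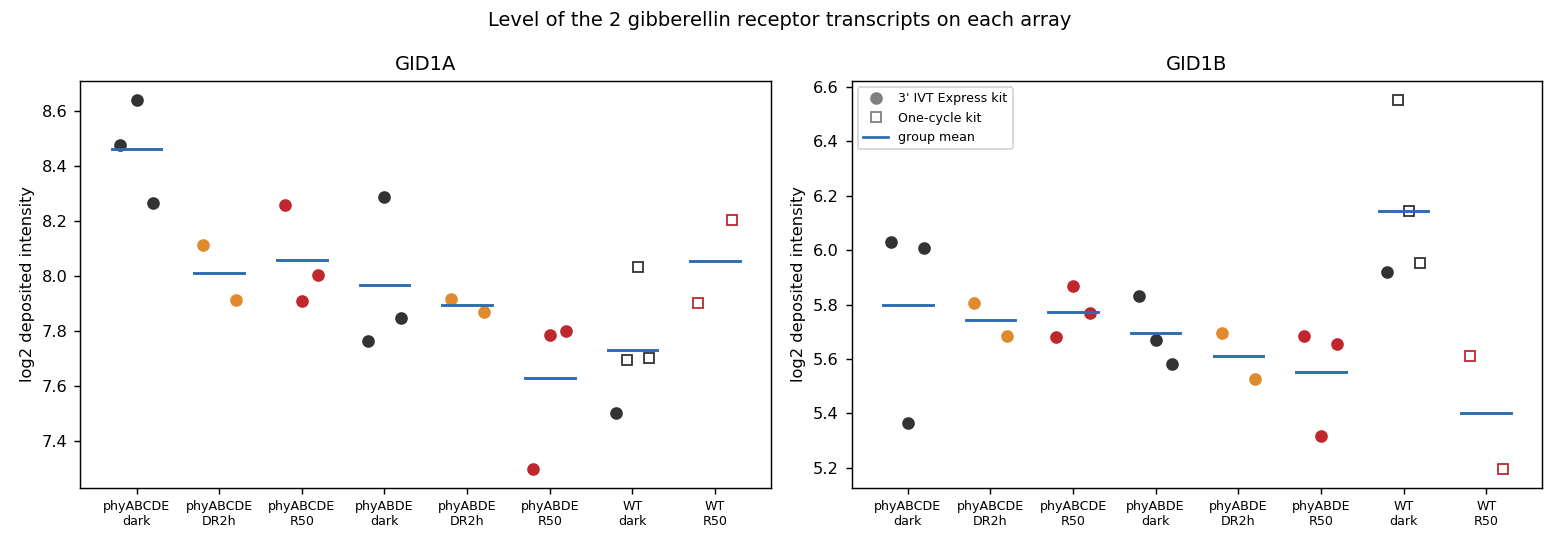
Log2 deposited intensity of GID1A (left) and GID1B (right) on each of the 22 arrays, by genotype and light condition, with group means as lines and the arrays of the older labelling kit as open squares. GID1A is highest in dark phyABCDE (8.26 to 8.64), and GID1B of WT lies at 5.19 to 5.61 under R50 and at 5.92 to 6.55 in darkness.

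By group mean, GID1A ran in the order phyABCDE dark (8.46 ± 0.19, log2 mean ± SD, n = 3), phyABCDE R50 (8.06 ± 0.18, n = 3), WT R50 (8.05 ± 0.21, n = 2), phyABCDE DR2h (8.01 ± 0.14, n = 2), phyABDE dark (7.97 ± 0.28, n = 3), phyABDE DR2h (7.89 ± 0.03, n = 2), WT dark (7.73 ± 0.22, n = 4) and phyABDE R50 (7.63 ± 0.29, n = 3). Of the 7 neighbouring pairs in that order, 6 differed by less than the larger of their SDs and overlapped. The exception was the first step, from dark to R50 phyABCDE. For GID1B the order was WT dark (6.14 ± 0.29, n = 4), phyABCDE dark (5.80 ± 0.38, n = 3), R50 (5.77 ± 0.09, n = 3) and DR2h (5.74 ± 0.08, n = 2), phyABDE dark (5.69 ± 0.13, n = 3), DR2h (5.61 ± 0.12, n = 2) and R50 (5.55 ± 0.21, n = 3), then WT R50 (5.40 ± 0.29, n = 2). Neighbours in it overlapped in 7 of 7 pairs, none further apart than the larger SD. Both orders and both counts of pairs use the deposited values, without adjustment for the labelling kit described below. With that adjustment the GID1A mean of WT was 7.74 under R50, and 7.50 in darkness, which is then the lowest group mean. The adjusted GID1B mean of WT was 5.11 under R50 and 5.92 in darkness, still the lowest and the highest. The levels of the 2 probe sets are not set against each other, because probe sets differ in brightness for reasons other than transcript amount.

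A labelling difference touches every comparison with WT. Per the series text, the One-cycle kit served for 5 WT arrays (dark replicates 2 to 4 and both R50 arrays) and the 3' IVT Express kit for 17 arrays. The sample labels, by contrast, give the 3' IVT kit throughout, and the series text was followed. Within dark WT, GID1A averaged 7.81 ± 0.19 (log2, SD, n = 3) on the One-cycle arrays, against 7.50 on the single 3' IVT array, and GID1B averaged 6.22 ± 0.31, against 5.92. The linear model therefore held a term for the kit beside the 8 group means. With it, only One-cycle arrays inform the red-light response of WT, and the link from mutant to WT levels is dark replicate 1 alone. A kit effect on the size of a response cannot be told apart from genotype where responses are compared.

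Other tissue in the samples was followed with 9 measured genes of late embryogenesis abundant (LEA) proteins, which mark maturing and dry seed and drop after germination. Their mean log2 intensity was 8.74 to 9.20 in dark, 8.81 to 9.32 in DR2h and 8.28 to 8.67 in R50 phyABCDE. In phyABDE it was 5.88 to 8.55 in darkness, 8.48 to 8.61 at DR2h and 5.44 to 7.81 under R50, with replicate 1 lowest in darkness and under R50. WT had 6.09 to 6.35 under R50, against 4.09 to 5.85 in darkness. Of the listed root genes only EXPA7 and EXPA18, expansins of root hairs, have a named probe set, and their mean was 3.28 to 4.09 (log2) in the mutants, 5.23 to 5.44 in R50 WT and 3.55 to 4.61 in dark WT. The table gives no detection calls, so presence at such dim values was not judged. All 6 measured genes of green tissue were higher under R50 than in darkness in WT, with a median log2 change of 1.62, in a comparison that called 27.5% of all probe sets. The lowest correlation between arrays of one group, over probe sets, was 0.978. The phytochrome transcripts are not analysed here, so the genotype labels were not checked on them.

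GID1B was lower in WT under continuous red light than in darkness. The log2 change, R50 minus dark, was -0.81 ± 0.20 (SE; 95% interval -1.23 to -0.40), a 1.76-fold lower intensity, with an adjusted p of 0.0039 (limma, Benjamini-Hochberg over all 22746 probe sets). In this comparison 13.8% of all probe sets were called lower at an adjusted p under 0.05 and 27.5% in either direction, so a call by itself is common here. In whole seedlings, fewer cells of a type and less RNA per cell cannot be told apart. The adjusted p was 0.092, with a change of -0.61, when WT R50 replicate 2 was left out. The LEA genes did not overlap between R50 and dark WT either, with 1 of 9 called higher and a median change of 1.30. With their level as a covariate the GID1B change was -0.66 (adjusted p = 0.023, limma). The slope of that covariate was fitted over all arrays, those of the mutants included. Since LEA level and light go together in WT, the covariate cannot tell them apart, and the cause was not tested.

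GID1A did not pass in WT. Its change was 0.24 ± 0.18 (SE; 95% interval -0.14 to 0.63; adjusted p = 0.38, limma), and the arrays overlapped. The third receptor, GID1C, had 5.87 and 5.65 (log2) under R50, against 5.70, 6.20, 6.64 and 6.18 in dark WT. Its change of -0.58 ± 0.24 also missed the threshold (adjusted p = 0.073, limma). The single 3' IVT array was the lowest dark array for all 3 receptors.

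In neither mutant did continuous red light give a call for a receptor. For GID1B the changes were -0.03 ± 0.18 in phyABCDE (95% interval -0.40 to 0.34) and -0.14 ± 0.18 in phyABDE (95% interval -0.51 to 0.23). These intervals do not reach the WT estimate of -0.81, which has its own 95% interval of -1.23 to -0.40. The phyABDE interval overlaps the WT interval, and the phyABCDE interval begins where the WT interval ends. The direct comparison of responses is given below. The comparison called 0.00879% of all probe sets in phyABCDE, or 2 in number (0 with replicate pairs as a block), and 0.145% in phyABDE. For GID1A the changes were -0.40 ± 0.17 in phyABCDE (adjusted p = 0.84, limma) and -0.34 ± 0.17 in phyABDE (adjusted p = 0.44), the direction opposite to the WT estimate. In phyABCDE the R50 arrays of GID1A all lay below the dark arrays, by 0.008 (log2) at the closest point. Averaged over both mutants GID1A changed by -0.37 ± 0.12, with an unadjusted p of 0.00495 and an adjusted p of 0.16 in limma's fit, where 0.686% of probe sets were called, and GID1B by -0.08 ± 0.13.

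The 2 h exposure gave no call for either receptor. In phyABCDE, GID1A changed by -0.45 ± 0.18 (95% interval -0.84 to -0.06; adjusted p = 0.74, limma), with both DR2h arrays 0.15 or more below the dark arrays, and GID1B by -0.06 ± 0.20 (95% interval -0.47 to 0.36). In phyABDE the values were -0.07 ± 0.18 for GID1A and -0.08 ± 0.20 for GID1B. This exposure called 0.0176% of all probe sets in phyABCDE and 0.0044% in phyABDE, and 0.0528% over both mutants. WT has no DR2h arrays, so whether the fall of WT GID1B is already present at that time was not measured. The R50 and DR2h comparisons of a mutant share its dark arrays.

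The responses themselves were compared between genotypes. The GID1B response of phyABCDE exceeded that of WT by 0.79 ± 0.27 (log2, SE; 95% interval 0.23 to 1.34; adjusted p = 0.048, limma), in a comparison that called 8.9% of all probe sets higher and 17.2% in either direction. That of phyABDE exceeded it by 0.67 ± 0.27 (95% interval 0.12 to 1.23), which missed the threshold (adjusted p = 0.11, limma; 13.6% of probe sets called). The call in phyABCDE was lost in 7 of 12 fits that left out 1 array, namely without phyABCDE dark replicate 2, phyABCDE R50 replicate 1, 2 or 3, WT dark replicate 2 or 3, or WT R50 replicate 2, with differences of 0.57 to 0.99 over the 12 fits. It was also lost in 7 of 11 alternative settings, which are given with the processing alternatives. The replicate block moved it to 1.33 and the phyABDE difference to 1.22.

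For GID1A the differences of response ran the other way and missed the threshold, at -0.65 ± 0.25 for phyABCDE minus WT (adjusted p = 0.082, limma) and -0.58 ± 0.25 for phyABDE minus WT (adjusted p = 0.14). Without WT dark replicate 3 the first was -0.76 with an adjusted p of 0.049. Both mutants are set against the same WT arrays here, so these values are not independent of each other. Between the mutants the responses differed by -0.06 ± 0.23 for GID1A (phyABCDE minus phyABDE; 95% interval -0.55 to 0.43) and by 0.11 ± 0.25 for GID1B (95% interval -0.41 to 0.64). In that comparison limma called 0% of probe sets, with 899 at an unadjusted p under 0.05.

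**Figure D2:**
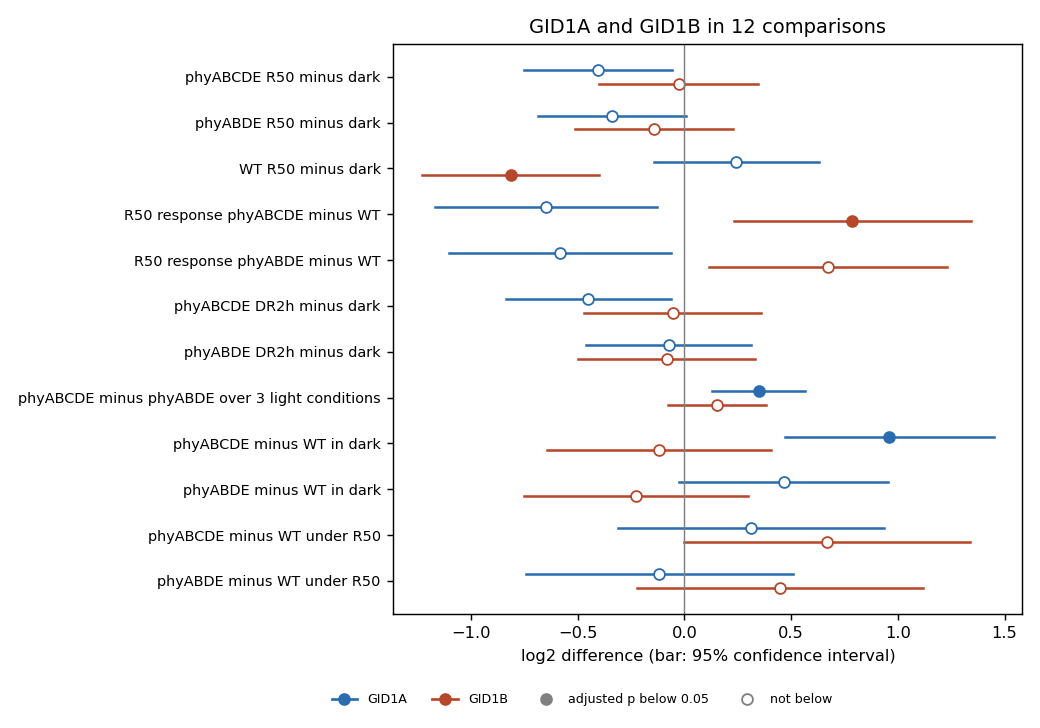
Log2 differences of GID1A (blue) and GID1B (red) in 12 comparisons with 95% confidence intervals, filled where the adjusted p was below 0.05. GID1B is filled for WT R50 minus dark (-0.81) and for the response of phyABCDE minus WT (0.79), and GID1A for phyABCDE minus WT in darkness (0.96) and phyABCDE minus phyABDE over 3 light conditions (0.35).

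Between genotypes, GID1A passed the test in 2 comparisons, both times higher in phyABCDE. Dark phyABCDE arrays (8.26 to 8.64) lay above all dark WT arrays (7.50 to 8.03), with a gap of 0.23, and the kit-adjusted difference was 0.96 ± 0.23 (log2, SE; 95% interval 0.47 to 1.45), a 1.95-fold higher intensity (adjusted p = 0.026, limma). In this comparison 1.9% of all probe sets were called higher and 3.6% in either direction. Without the kit term the difference was 0.73. With it, the WT level rests on dark replicate 1 alone (7.50), the lowest of the dark WT arrays. The adjusted p of the kit-adjusted difference (limma) was 0.079 without phyABCDE dark replicate 2 and 0.072 with only the compared arrays in the fit. With replicate number across genotypes as a block the difference was 0.91 (adjusted p = 0.054, limma). Of the LEA genes, 7 of 9 were also called higher in dark phyABCDE than in dark WT, with a median difference of 3.77. With the LEA level of each array as a covariate the GID1A difference was 0.31 (adjusted p = 0.97, limma). The LEA levels of these groups did not overlap (8.74 to 9.20 in dark phyABCDE, 4.09 to 5.85 in dark WT). The covariate therefore cannot tell genotype from LEA level, and the cause was not tested.

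Dark phyABDE stood between them for GID1A, at 0.47 ± 0.23 above WT (95% interval -0.02 to 0.96; adjusted p = 0.46, limma; 0.805% of probe sets called). GID1B did not pass in darkness, with -0.12 ± 0.25 for phyABCDE minus WT and -0.23 ± 0.25 for phyABDE minus WT. The dark phyABDE arrays of GID1B all lay below the dark WT arrays, by 0.09, although 3 of those 4 WT arrays carry the other kit. Under R50 the differences from WT missed the threshold too: 0.31 ± 0.30 for GID1A and 0.67 ± 0.32 for GID1B in phyABCDE (adjusted p = 0.61 and 0.21, limma; 12.6% of probe sets called), and -0.12 ± 0.30 and 0.45 ± 0.32 in phyABDE (adjusted p = 0.89 and 0.48; 9.96% called).

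The presence of phytochrome C is the difference between the mutants by label. Averaged over 3 light conditions, GID1A was higher in phyABCDE than in phyABDE by 0.35 ± 0.10 (log2, SE; 95% interval 0.13 to 0.56; 1.27-fold; adjusted p = 0.030, limma), where 7.46% of all probe sets were called higher and 13.7% in either direction. This comparison holds only 3' IVT arrays. By condition the difference was 0.49 ± 0.17 in darkness, 0.12 ± 0.20 at DR2h and 0.43 ± 0.17 under R50, none of them past the threshold (adjusted p = 0.15, 0.93 and 0.16, limma; 2.33%, 1.2% and 3.97% of probe sets called). Under R50 all 3 phyABCDE arrays lay above all 3 phyABDE arrays, by 0.11. Without phyABDE dark replicate 2, the highest of its group, the dark difference was 0.65 (adjusted p = 0.046).

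The averaged call was kept in 8 of 16 fits that left out 1 array, with differences of 0.29 to 0.40. It was lost without phyABCDE dark replicate 2, R50 replicate 1 or DR2h replicate 1, and without phyABDE dark replicate 1 or 3, R50 replicate 1, or DR2h replicate 1 or 2. Of the LEA genes 6 of 9 were called higher in phyABCDE in the same comparison, with a median difference of 1.32. With their level as a covariate GID1A differed by 0.12 (adjusted p = 0.65, limma). LEA level goes with genotype here too, although the levels of the 2 mutants overlap in part, and the cause was not tested. GID1B differed by 0.15 ± 0.11 between the mutants (95% interval -0.08 to 0.38; adjusted p = 0.43).

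Since GID1A and the LEA genes were high in the same mutant, their levels were set against each other array by array within each genotype. The LEA level spanned 8.28 to 9.32 in phyABCDE, 5.44 to 8.61 in phyABDE and 4.09 to 6.35 in WT, with overlap of phyABDE with each of the others, and no coefficient over all genotypes was tested. Over the 8 phyABDE arrays GID1A and the LEA level correlated with Pearson's r = 0.79 (exact permutation p = 0.0011, adjusted 0.0068 over the 6 relations tested) and Spearman's rho = 0.90 (exact permutation p = 0.0046, adjusted 0.027). Without R50 replicate 1 and dark replicate 1, the pair farthest from the median, r was 0.59. These p-values take the arrays as exchangeable and leave out both light condition and the pairing of dark and R50 arrays by replicate number; both replicate 1 arrays were low in the LEA level (5.88 in darkness and 5.44 under R50) and in GID1A (7.76 and 7.30). Over the 8 phyABCDE arrays, whose LEA levels span a narrower range, r was 0.58 (exact permutation p = 0.13, adjusted 0.27) and rho 0.55 (p = 0.17, adjusted 0.34).

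GID1B did not pass in either mutant, with r = -0.08 over the phyABCDE arrays (exact permutation p = 0.85, rho = 0.07, p = 0.88) and r = -0.41 over the phyABDE arrays (exact permutation p = 0.31, rho = -0.19, p = 0.66). In WT, over 6 arrays, GID1B ran against the LEA level with r = -0.88 (exact permutation p = 0.026, adjusted 0.079) and rho = -0.89 (p = 0.033, adjusted 0.1), and r was -0.82 without dark replicate 2 and R50 replicate 1. Light and LEA level move together in WT, where both R50 arrays have the higher LEA levels. GID1A in WT gave r = 0.37 (exact permutation p = 0.48, adjusted 0.57) and rho = 0.43 (p = 0.42, adjusted 0.63). Both WT relations used values without kit adjustment and took all 6 arrays as exchangeable, although dark replicate 1 of WT carries the other kit.

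**Figure D3:**
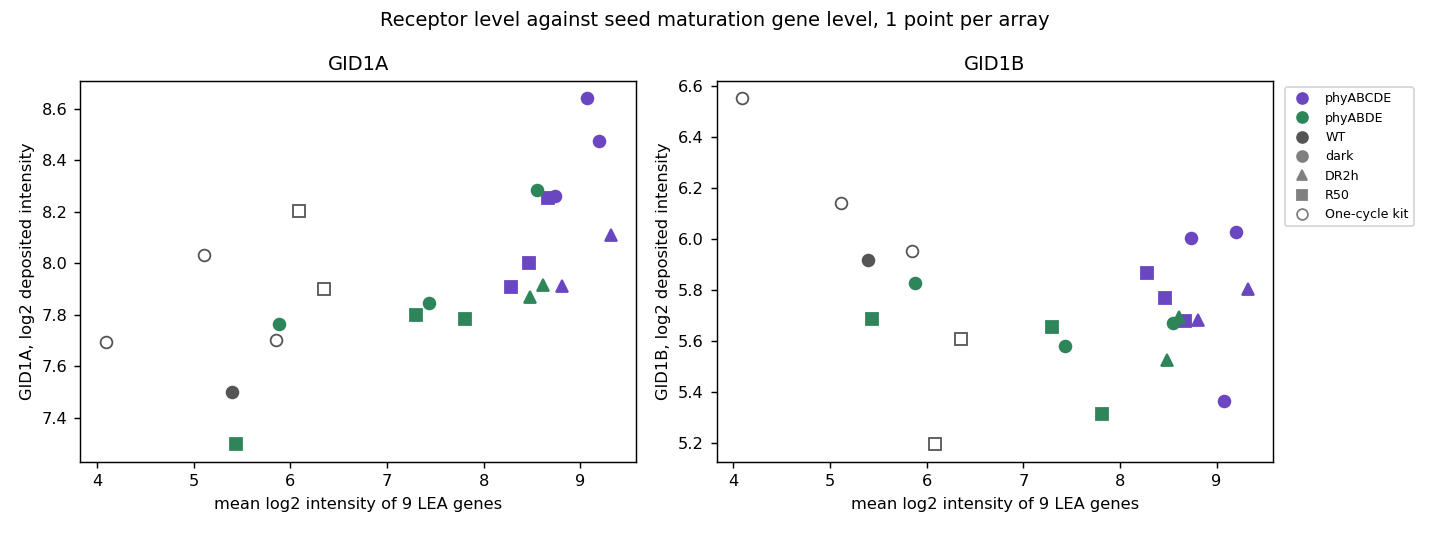
Log2 intensity of GID1A (left) and GID1B (right) against the mean log2 intensity of 9 LEA genes, 1 point per array, coloured by genotype and shaped by light condition, with One-cycle arrays open. In phyABDE the GID1A points climb with the LEA level (r = 0.79 over 8 arrays), and phyABCDE lies at LEA levels of 8.28 to 9.32, which 3 phyABDE arrays share.

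Whether the 2 receptors changed unequally was tested inside each array of the mutants, where the kit is the same. Under R50, over both mutants, the GID1B change minus the GID1A change was 0.29 (log2; exact permutation test of 400 arrangements over 12 arrays, two-sided p = 0.23, adjusted 0.36 over 3 tests). At DR2h it was 0.19 (exact permutation p = 0.53 over 10 arrays), and for phyABCDE minus phyABDE it was -0.19 (exact permutation p = 0.24 over 16 arrays, adjusted 0.36). None of these passed. The R50 test permuted light labels within each genotype and left out the pairing of dark and R50 arrays by replicate number. Across all 22 kit-adjusted arrays GID1A and GID1B correlated at -0.07, and their deviations from the group means correlated at -0.47. GID1B and GID1C correlated at 0.45, and GID1A and GID1C at 0.13. These coefficients describe arrays that share groups and processing.

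Of the 57 genes listed for gibberellin synthesis, perception and response, 11 have a named probe set, so 9 could be set beside the 2 receptors. No listed DELLA gene and no listed gene of gibberellin synthesis or inactivation is among them. In WT, R50 against dark, 1 of the 9 was called higher and 3 lower, with a median change of -0.16 over the 9 and of -0.02 over all probe sets; of all probe sets 27.5% were called in either direction and 13.8% lower.

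Among the proteins that act on DELLA proteins, the F-box gene SLY2, a relative of the SLEEPY1 gene SLY1, was higher under red light. It had 4.18 and 4.21 (log2) in R50 WT, against 3.63, 3.04, 2.97 and 3.08 in dark WT. Its change was 1.16 ± 0.13 (adjusted p = 6.8e-07, limma), at intensities of 7.8 to 18.5 units that are dim for these arrays. With an offset of 16 added before log2 the change was 0.50, still called. The other 3 modifiers missed the threshold, with 0.17 ± 0.16 for SLY1, the main F-box gene for DELLA degradation, -0.16 ± 0.22 for SPY, an O-fucosyltransferase of DELLA proteins, and -0.02 ± 0.12 for SEC, an O-GlcNAc transferase of DELLA proteins.

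Among the genes known to respond to gibberellin or DELLA proteins, the 3 measured of 12 listed were each called lower under red light in WT, where 13.8% of all probe sets were. They are listed as targets of either, without a direction, so the shared fall is not read as a change of the pathway. The bHLH gene AT5G50915 had 4.78 and 4.69 (log2) in R50 WT, against 6.88, 6.80, 6.85 and 6.99 in dark WT, a change of -2.14 ± 0.18 (adjusted p = 2.5e-08, limma). EXPA8, an expansin that loosens cell walls, had 9.10 and 9.56 in R50 WT, against 10.76, 10.77, 10.65 and 10.88 in dark WT, a change of -1.43 ± 0.22 (adjusted p = 4.55e-05). XERICO, a RING-finger protein tied to abscisic acid level and raised by DELLA proteins, had 7.84 and 7.87 in R50 WT, against 8.93, 8.82, 8.98 and 8.74 in dark WT, a change of -0.99 ± 0.14 (adjusted p = 2.7e-05). For each of these genes both R50 arrays of WT lay below every dark array of WT. How common such a separation is among all probe sets was not counted. ALC, a bHLH protein that DELLA proteins bind in fruit, missed the threshold at 0.50 ± 0.19 (adjusted p = 0.053).

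In the mutants limma called 0 of the 9 in R50 and in DR2h, either alone or averaged. At an unadjusted p under 0.05 there were 2 in phyABDE and 0 in phyABCDE under R50, and 1 in phyABCDE at DR2h. Of all 22746 probe sets, 2635, 1291 and 1413 did so in these 3 comparisons, in that order. Their median changes under R50 were -0.07 in phyABCDE and -0.08 in phyABDE, against 0.01 over all probe sets in each. Between the mutants, over 3 light conditions, SEC alone of the 9 was called, where 13.7% of all probe sets were called and 7.46% were called higher. It was higher in phyABCDE by 0.26 ± 0.07 (adjusted p = 0.014, limma), a call that did not hold without DR2h replicate 2 of phyABCDE or of phyABDE. The median over the 9 was 0.18, and -0.01 over all probe sets. In darkness limma called 0 of the 9 in either mutant against WT, with 4 in phyABCDE and 3 in phyABDE at an unadjusted p under 0.05. Of all 22746 probe sets, 3905 for phyABCDE and 2679 for phyABDE were under that value.

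Under R50, 3 of the 9 were called in each mutant against WT, where 12.6% of all probe sets were called for phyABCDE and 9.96% for phyABDE. Both comparisons use the same 2 R50 arrays of WT and the same WT array as link between kits, so they are not independent. AT5G50915 was higher by 1.88 in phyABCDE and 1.55 in phyABDE, XERICO was higher by 1.04 and 0.86, and SLY2 was lower, with -1.48 and -1.18. The XERICO difference of phyABDE rested on both WT arrays, with an adjusted p of up to 0.057 when either WT R50 array was left out. SLY2 had a kit shift of -0.60 (One-cycle minus 3' IVT) in dark WT, so its adjusted levels lean on the single 3' IVT array.

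**Figure D4:**
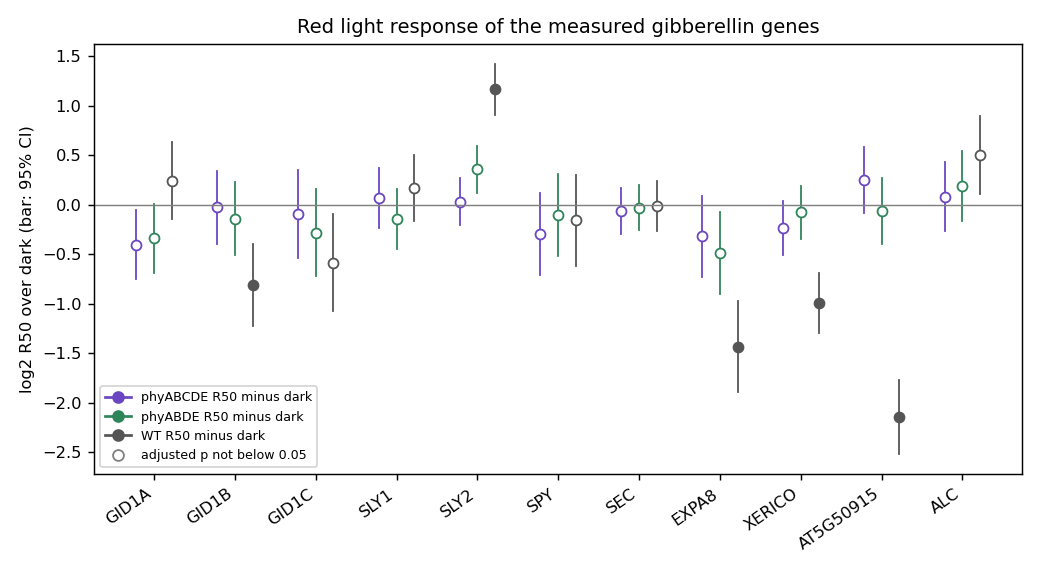
Log2 change of R50 over dark with 95% confidence intervals for the 11 measured gibberellin genes in phyABCDE, phyABDE and WT, filled where the adjusted p was below 0.05. Filled points occur in WT for GID1B, SLY2, EXPA8, XERICO and AT5G50915, and both mutants have open points throughout.

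The named genes whose pattern was most like that of each receptor were ranked by Pearson's r over the 22 kit-adjusted arrays, among 6858 probe sets with 1 gene and a spread of at least 0.5 (log2) between group means. For GID1A they were AT5G16460 (r = 0.92), AT4G24110 (0.90), AT1G03990 (0.89), AT1G71350 (0.89) and AT3G25870 (0.88). All 5 were highest in dark phyABCDE and lowest in dark WT. AT4G24110, for example, had a kit-adjusted mean of 5.66 in dark, 4.83 in DR2h and 4.87 in R50 phyABCDE, and of 3.61 in R50 and 2.96 in dark WT. GID1A itself spans less, from 8.46 in dark phyABCDE to 7.50 in dark WT on the same adjusted scale.

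For GID1B the 5 were AT2G42990 (r = 0.89), AT5G43180 (0.85), AT1G53180 (0.83), FATB (0.83), which encodes a thioesterase that releases fatty acids in plastids, and PHOS34 (0.82). All 5 had their lowest group mean in R50 WT and their highest in dark WT. AT5G43180 had a kit-adjusted mean of 5.71 in R50 WT, against 7.87 in dark WT, and FATB of 8.81 against 9.77. GID1B had 5.11 against 5.92. These likenesses were picked as the highest of many over arrays that share groups, and they depend on the kit adjustment: without it 1 of the 5 for GID1A and 2 of the 5 for GID1B stayed among the first 5.

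**Figure D5:**
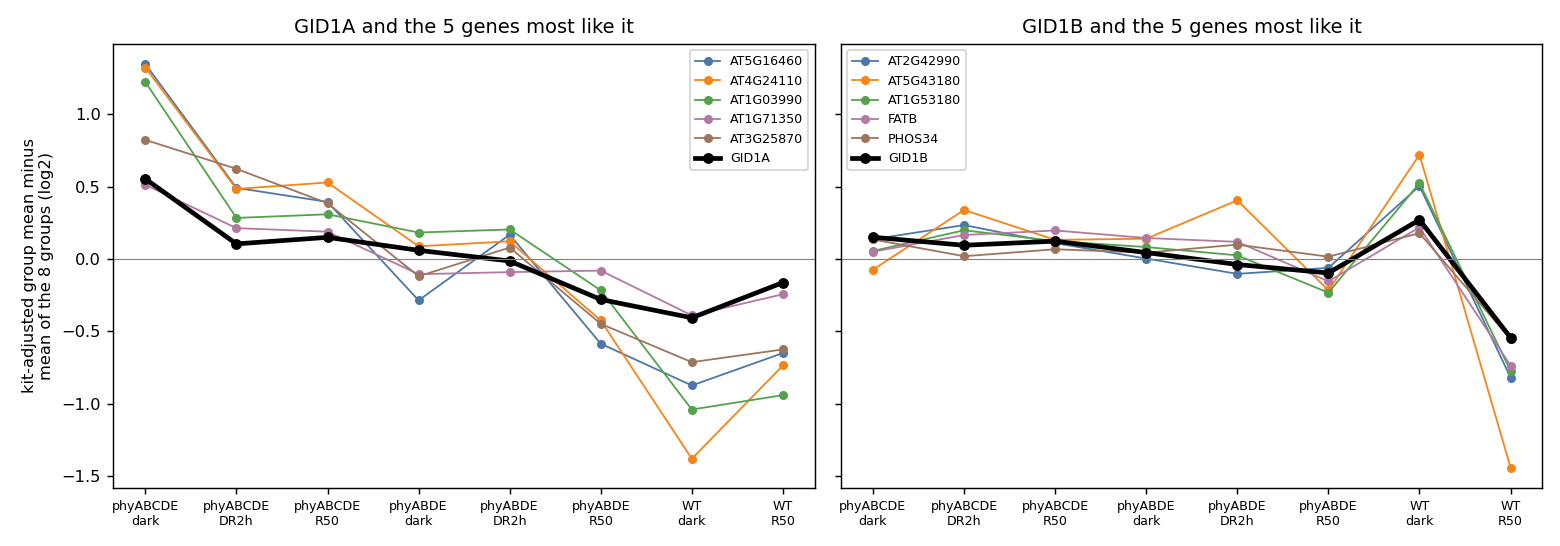
Kit-adjusted group means (log2), each minus the gene's mean over the 8 groups, for GID1A (left) and GID1B (right) in black and the 5 genes most like each in colour. GID1A and its 5 genes peak in dark phyABCDE, and GID1B and its 5 genes drop in R50 WT, where GID1B is at 5.11 against 5.92 in dark WT.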

How the data were processed

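Whole-seedling RNA was measured on 22 Affymetrix ATH1 arrays. The deposited table holds a linear intensity for each probe set on each array. RMA, GCOS and limma are listed in the submitters' processing notes, with no role given to each. Array medians were 40.2 to 44.9 intensity units, and no further normalization was applied. Of 22810 probe sets, 64 controls were left out. GEO's platform annotation names 1 gene for 13513 of the 22746 tested, several for 503 and none for 8730; 13436 matched RefSeq (TAIR10.1), used for names only.

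Log2 intensities were fitted with limma 3.58.1 (lmFit, eBayes) in R 4.3.3, with 8 group means and a labelling kit term (13 residual degrees of freedom), over all arrays and 18 comparisons; p-values were adjusted within each by Benjamini-Hochberg (threshold 0.05). The fit was tested on simulated data. Permutation tests and plots used Python 3.11.15. The number of arrays limits the precision.

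Named genes are both receptors in every comparison, other listed gibberellin genes that were called, and the 5 genes most like each receptor; GID1C, ALC and the uncalled modifiers were added to complete their roles. Members and lists were chosen with earlier results of these data known. Equal replicate numbers of dark and R50 mutant arrays deviated together (correlations of 0.11 to 0.48) and were taken as pairs; those of WT (-0.03 and 0.00) and of DR2h arrays (-0.33 to 0.10) did not. Pairs entered only as an alternative. Replicates are called biological, with no word on separate sowings, so p-values measure the spread between these samples. Other alternatives concerned the kit term, scaling, offset, filter, array weights, variance prior, LEA level and left-out arrays.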

Additional observations from a re-analysis of the deposited data

Results flagged for a closer look

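The R50 response differed between a mutant and WT in a limma interaction test for 5 of the 11 measured gibberellin genes, in comparisons that called 17.2% of all probe sets for phyABCDE and 13.6% for phyABDE, and a kit effect on response size cannot be told apart from genotype in any of them. For GID1B the difference was 0.79 for phyABCDE minus WT. AT5G50915 gave 2.40 for phyABCDE and 2.08 for phyABDE, and both calls held in 12 of 12 fits that left out 1 array. EXPA8 gave 1.12 for phyABCDE, which was not called without WT R50 replicate 1, and 0.95 for phyABDE, which was called in only 4 of 12 such fits. XERICO gave 0.76 for phyABCDE and 0.91 for phyABDE. SLY2 gave -1.13 for phyABCDE and -0.81 for phyABDE. For GID1A and GID1B no array of dark WT stood apart from its group by Dixon's criterion, with ratios of 0.62 and 0.65 below the critical value for 4 arrays.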

How the results depend on the processing

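Over 36 receptor comparisons and 11 alternatives other than leaving out arrays, 376 values kept their direction and their side of the threshold. GID1B in WT, R50 minus dark, was called under 11 of 11, from -1.36 with the replicate block to -0.63 with an offset of 16. GID1A, phyABCDE minus phyABDE over 3 light conditions, lost its call centred on array medians (0.31), with the LEA level as a covariate (0.12) and without phyABDE dark and R50 replicate 1 together (0.26). GID1A, phyABCDE minus WT in darkness, lost it with the compared arrays only (0.96, adjusted p = 0.072), the replicate block (0.91) and the LEA covariate (0.31). The GID1B response, phyABCDE minus WT, lost it without the kit term (0.71), with the compared arrays only (0.79), an offset of 16 (0.61), quantile normalization (0.72), centring on medians (0.75), the LEA covariate (0.56) and without the phyABDE replicate 1 pair (0.79). The response of phyABDE minus WT passed with the replicate block (1.22, adjusted p = 0.024). Sign changes occurred for uncalled values with the LEA covariate (GID1B DR2h 0.082 in phyABDE and 0.017 over both mutants; GID1B in darkness 0.35 for phyABCDE and 0.021 for phyABDE minus WT; GID1A -0.024 for phyABCDE minus WT under R50) and without the phyABDE pair (GID1A 0.048 for phyABDE minus WT under R50). The replicate block ended 6 calls of other named genes: XERICO 0.81 for phyABDE minus WT under R50 and, for responses against WT, XERICO 0.72 and 0.87, EXPA8 0.88 and 0.72, and SLY2 -0.81. It changed no other receptor call. The EXPA8 response of phyABDE also lost its call with the offset, array weights, the LEA covariate and without the phyABDE pair, that of phyABCDE with the LEA covariate, and SLY2 (phyABDE response) and SEC without the kit term. SLY2 kept its calls with the offset at smaller values, 0.50 for WT R50 minus dark and, under R50, -0.63 for phyABCDE and -0.51 for phyABDE minus WT (-0.88 and -0.58 without the kit term), with responses against WT of -0.49 and -0.36. The cause was not tested.

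With 1 array left out, GID1B in WT, R50 minus dark, ranged from -1.02 to -0.61, GID1A from 0.29 to 0.40 for phyABCDE minus phyABDE over 3 conditions and from 0.87 to 1.06 for phyABCDE minus WT in darkness, and the GID1B response of phyABCDE minus WT from 0.57 to 0.99. Ranges of uncalled values that passed or changed sign were 0.39 to 0.65 for GID1A, phyABCDE minus phyABDE in darkness, and -0.80 to -0.50 for the GID1A response of phyABCDE minus WT. For R50 minus dark in phyABCDE, GID1B ranged from -0.24 to 0.087. For DR2h minus dark, GID1A in phyABDE ranged from -0.17 to 0.086, GID1B in phyABDE from -0.17 to 0.0011 and GID1B in phyABCDE from -0.27 to 0.059. GID1B ranged from -0.0085 to 0.32 for phyABCDE minus phyABDE and from -0.23 to 0.097 for phyABCDE minus WT in darkness. GID1A ranged from -0.27 to 0.048 for phyABDE minus WT under R50. Response differences between the mutants ranged from -0.23 to 0.037 for GID1A and from -0.10 to 0.23 for GID1B. Without WT dark replicate 1 no mutant level could be set against WT with the kit term.

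Counts of called probe sets moved with the setting: WT R50 6245, 3797 with the replicate block; phyABDE R50 33, 13 (compared arrays only) to 120 (array weights); phyABCDE R50 2, 0 to 3; both mutants R50 156, 96 (centring) to 207; DR2h 1, 4 and 12 for phyABDE, phyABCDE and both, up to 6, 26 and 35. For phyABCDE minus phyABDE they were 529 in darkness (191 with the LEA covariate), 274 at DR2h (998 with array weights), 903 under R50 (467 with the LEA covariate) and 3127 over 3 conditions (1402 with the LEA covariate). Against WT in darkness they were 819 for phyABCDE (48 with the LEA covariate, 5562 without the kit term) and 183 for phyABDE (61 with the compared arrays only, 4441 without the kit term). Under R50 they were 2858 (6765 without the kit term) and 2265 (7180 with the compared arrays only). By Spearman correlation 1 of the 5 genes most like GID1A and 0 of those most like GID1B stayed among the first 5.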
